A study of Mus musculus with 1989 samples.

Results

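TNF receptor high thymocytes are the 70 of 1993 thymocytes, from 1 droplet-based scRNA-seq library, with the highest mean log2 value over Tnfrsf4, Tnfrsf18 and Tnfrsf9. They were selected on those deposited values, so the levels of these 3 genes describe the choice and support nothing. The library came from thymus of male C57BL/6 mice labelled 7 weeks old, with no treatment or modified allele in the labels and no animal named for a cell. A total of 674 other cells had Itm2a above 0 and served as the comparison. Itm2a codes for a membrane protein whose RNA appears at positive selection. With 1 library there is no replicate, and no test was run. SDs are spreads over cells, shares carry exact binomial (Clopper-Pearson) 95% intervals, and both cover differences among cells and counting error only.

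Tnfrsf4 (OX40), Tnfrsf18 (GITR) and Tnfrsf9 (4-1BB) are costimulatory receptors of the TNF receptor superfamily. They bind ligands on antigen-presenting cells, recruit TRAF adaptors and feed the canonical and noncanonical NF-kappaB pathways. In the thymus they are known from cells that received a strong T cell receptor signal, among them precursors of Foxp3+ regulatory T cells, in which the cytokine receptor subunit Il2ra and the transcription factor Ikzf2 (Helios) are also found.

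All 3 receptor genes lie on chromosome 4, on the plus strand of GRCm38.p6 as annotated by RefSeq. Tnfrsf4 spans chr4:156013595-156016613 and Tnfrsf18 chr4:156026322-156028894, so that 9709 bases separate them, and Tnfrsf9 spans chr4:150920155-150946104. The 250 bases before a transcription start are shown for each receptor gene because these genes chose the cells, and for H2-K1 on chromosome 17 (minus strand) because it is among the genes that stood higher in the cells and its window holds the same motif as that of Tnfrsf9. Capitals mark matches on either strand to the kappaB consensus, the DNA site of NF-kappaB dimers, or to the AP-1 motif TGANTCA. For Tnfrsf9 the second of 2 RefSeq starts is shown, and the Tnfrsf4 window belongs to a start inside the annotated gene span, so that it overlaps the span.
Tnfrsf4, chr4:156013445-156013694: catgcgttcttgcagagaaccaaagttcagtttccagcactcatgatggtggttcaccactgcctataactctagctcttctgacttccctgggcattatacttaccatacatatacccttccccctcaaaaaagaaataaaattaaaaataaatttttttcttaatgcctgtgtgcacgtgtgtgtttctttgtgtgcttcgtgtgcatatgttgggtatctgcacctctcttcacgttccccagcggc
Tnfrsf18, chr4:156026072-156026321: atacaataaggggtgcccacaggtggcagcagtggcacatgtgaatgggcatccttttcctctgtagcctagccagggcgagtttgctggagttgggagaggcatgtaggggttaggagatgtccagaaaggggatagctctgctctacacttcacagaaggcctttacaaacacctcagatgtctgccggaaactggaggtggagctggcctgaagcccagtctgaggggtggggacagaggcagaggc
Tnfrsf9, chr4:150927749-150927998: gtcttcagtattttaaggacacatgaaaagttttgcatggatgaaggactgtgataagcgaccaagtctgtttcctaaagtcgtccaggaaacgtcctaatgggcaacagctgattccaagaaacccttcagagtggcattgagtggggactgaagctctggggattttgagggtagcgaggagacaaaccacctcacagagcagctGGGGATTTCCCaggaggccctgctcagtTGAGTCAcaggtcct
H2-K1, chr17:34000348-34000597: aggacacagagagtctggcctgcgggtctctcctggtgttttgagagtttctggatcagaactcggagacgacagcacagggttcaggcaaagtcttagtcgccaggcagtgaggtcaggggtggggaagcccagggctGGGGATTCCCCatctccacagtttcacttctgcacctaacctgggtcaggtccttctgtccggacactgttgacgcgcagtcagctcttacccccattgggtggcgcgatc

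In Tnfrsf9, 2 overlapping kappaB matches began 43 and 42 bases before the start and an AP-1 match 15 bases before it. The window of the first Tnfrsf9 start and those of Tnfrsf4 and Tnfrsf18 held neither motif, which says only that these letters are not there. In H2-K1, 2 overlapping kappaB matches began 111 and 110 bases before the start. Of 32851 windows of the same length, 7.25% held a kappaB match and 6.75% an AP-1 match. The windows of H2-D1, B2m, Ltb, Rel and Nfkbia, genes described below, also held a kappaB match, whereas those of Cd200, Bcl2l11 (2 starts) and Btg1 held none. A match is a description of the sequence and not a site.

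The mean of the 3 receptors ranged from 0.65 to 3.04 over the chosen cells, with a median of 1.02. The last cell inside had 0.652 and the first cell outside 0.648, so the limit falls within a gradual decline, as the plot of ranked cells shows. Tnfrsf4 was above 0 in 50 of the 70 cells, Tnfrsf18 in 49 and Tnfrsf9 in 32. Per cell, Tnfrsf4 ran from 0 to 4.84 with a median of 1.47, Tnfrsf18 from 0 to 3.76 with a median of 1.05, and Tnfrsf9 from 0 to 4.26 with a median of 0. All 3 receptors were above 0 in 8 cells, 2 receptors in 45 cells and 1 receptor in 17 cells. The commonest pair was Tnfrsf4 with Tnfrsf18, in 25 cells, whereas Tnfrsf9 was paired with either of them in 10 cells each. In 26 of the 70 cells the receptors summed to 2 or 3 of the lowest levels of signal, so a receptor at 0 may be one that was not detected. Across the 70 cells Tnfrsf9 and Tnfrsf4 had Pearson's r = -0.34 and Spearman's rho = -0.38 over cells that share 1 library and were chosen on the mean of both genes.

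**Figure D1:**
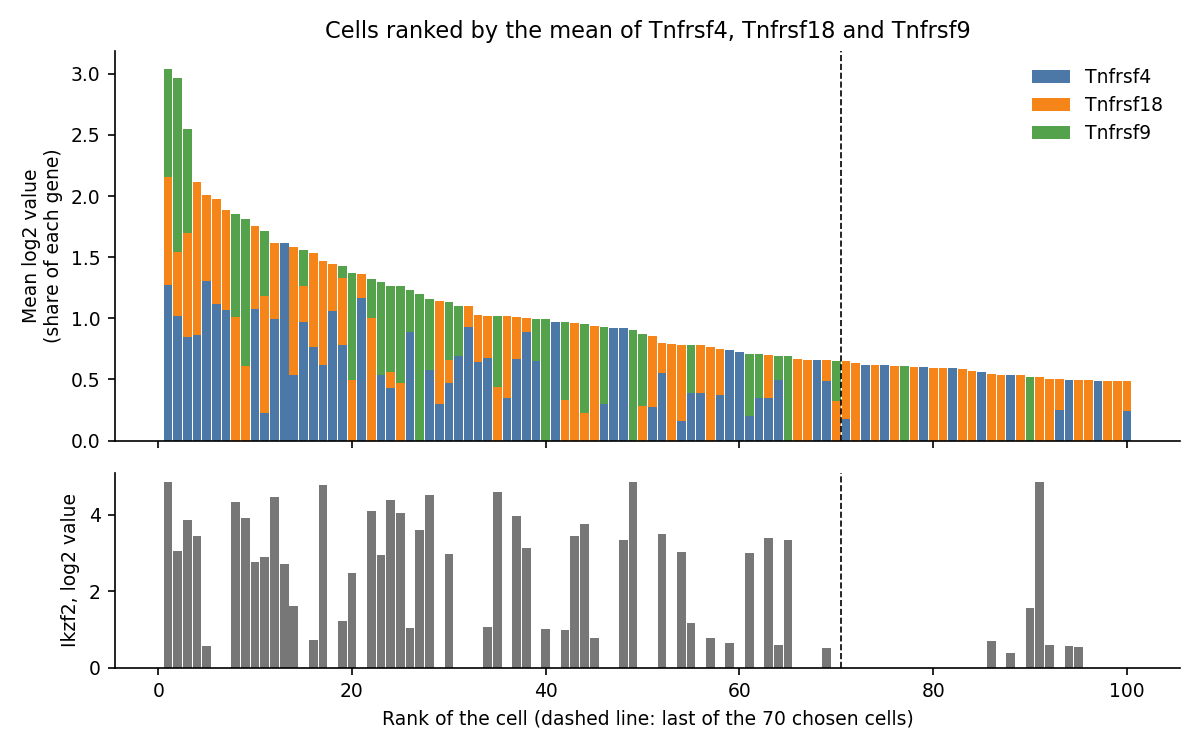
The 100 cells with the highest mean of the 3 receptors, ranked; the upper panel stacks the share of each gene in the mean log2 value, and the lower panel gives the log2 value of Ikzf2 in the same cell. The mean declined gradually through the limit at cell 70 (dashed line), and Ikzf2 was above 0 in 45 of the 70 chosen cells.

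Depth bears on the choice. Cells had to rank high on a log2 value, and the value that the lowest nonzero signal of a cell receives after quantile normalization was larger in cells with fewer genes (Pearson's r = -0.93 over 1993 cells). The median of that lowest value was 0.85 in the chosen cells, 0.66 in the comparison cells and 0.57 in 871 cells with Rag1 above 0 and Itm2a at 0. The chosen cells had a median of 1255.5 genes above 0 (range 830 to 3377), the comparison cells 1490.5 and the Rag1 cells 1641. In 6 chosen cells all receptor values were at the lowest nonzero value. Shares were therefore also computed after each cell was thinned to 1300 steps, where the lowest nonzero value of a cell counts as 1 step, the next higher one as 2 steps and so on. After thinning, Tnfrsf4 was above 0 in 61.4% of chosen and 2.52% of comparison cells, Tnfrsf18 in 54.3% and 6.68%, and Tnfrsf9 in 40.0% and 1.19%. In the Rag1 cells, used as a background, these thinned shares were 1.03%, 7.35% and 0.23%.

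Each receptor could be read in cells that it had not helped to choose. When the 70 cells with the highest mean of the other two receptors were taken, Tnfrsf4 was above 0 in 37.1% of them (25.9 to 49.5%), against 8.10% (6.16 to 10.4%) of the other Itm2a cells. Tnfrsf18 left out in the same way was above 0 in 50.0% (37.8 to 62.2%) against 19.9% (16.9 to 23.1%). Tnfrsf9 was above 0 in 22.9% (13.7 to 34.4%) against 3.54% (2.28 to 5.22%). The intervals were apart for all 3 genes. After thinning the shares were 31.4% against 4.57% for Tnfrsf4, 35.7% against 7.86% for Tnfrsf18 and 20.0% against 2.80% for Tnfrsf9. Thus cells high for a pair of these receptors more often held the remaining one than other Itm2a cells did. Those other cells were of mixed stages, as given below, and the part of stage was not tested.

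To place the cells in development, all cells were clustered without the 3 receptor genes, which gave 17 clusters. Cluster 14, a small cluster of 73 cells led by Tmsb10, Ifi27l2a, Shisa5, Ikzf2 and Cd52, held 39 of the 70 cells (55.7%, 43.3 to 67.6%) but 17 of the 674 comparison cells (2.52%). Its marker scores were close for CD4 single-positive (0.42) and selected double-positive (0.33) cells, and it was left unnamed. Cluster 5, led by Tmsb10, Ifi27l2a and Cd52 with Klf2 among its leading genes, held 15 of the cells, and cluster 3, with Itm2a and Bcl2 among its leading genes, held 10. Cluster 7 held 3, and clusters 1, 4 and 16 held 1 each. No chosen cell lay in any cluster in which over 50% of cells had Mki67, nor in the clusters with the highest double-negative (cluster 12) or nonconventional lymphocyte (cluster 17) score. The exact interval of 0 of 70 reaches 5.13%.

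**Figure D2:**
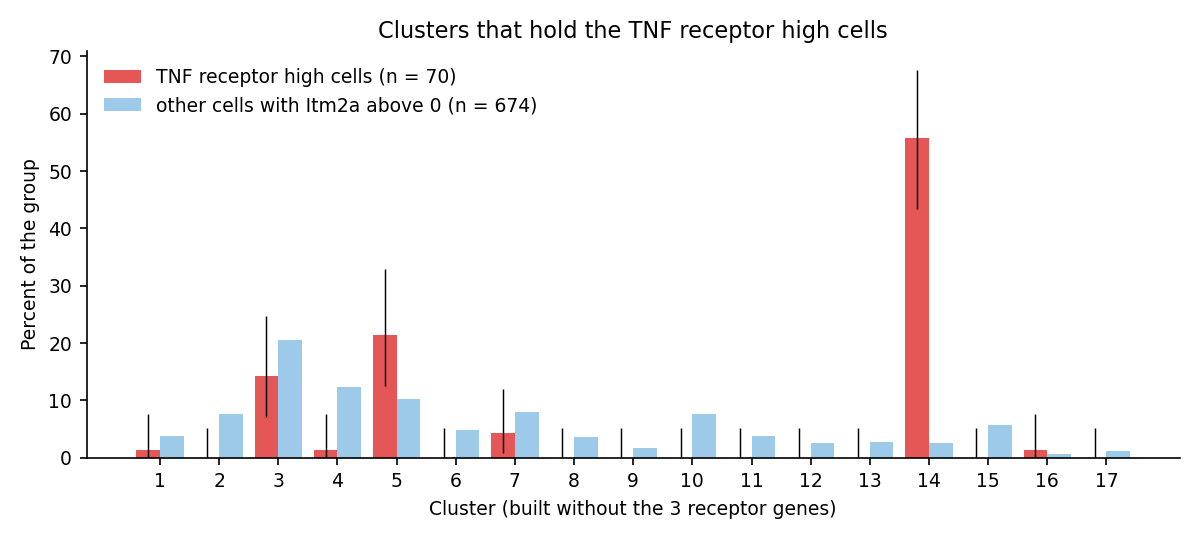
Percent of the 70 TNF receptor high cells and of the 674 other Itm2a cells in each of 17 clusters; bars on the first are exact binomial 95% intervals. Cluster 14 held 55.7% of the former and 2.52% of the latter.

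The comparison cells were a mixture. Mki67, a marker of cycling cells, was above 0 in 36.5% of them and in 8.57% of the TNF receptor high cells. A narrower set was therefore formed after the data had been seen: the 362 comparison cells in the 5 clusters whose highest marker score was that of selected double-positive, CD4 or CD8 single-positive cells (clusters 3, 4, 5, 7 and 14). Their median number of genes was 1262.5 and their lowest nonzero value had a median of 0.84, both near the values of the chosen cells, and Mki67 was above 0 in 11.3%. They are called the selected Itm2a cells here. Since all of them had Itm2a by choice while 48 of the 70 TNF receptor high cells did, the difference in Itm2a itself follows from the grouping.

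Genes detected in at least 10% of the cells on one side were described, and a gene was called where the means differed by at least 0.5 on the log2 scale. Against all other Itm2a cells, 22 of 5990 genes (0.367%) were called higher and 55 (0.918%) lower, leaving out the 3 receptors. Against the selected Itm2a cells, 10 of 4910 genes (0.204%) were called higher and 5 (0.102%) lower. The median difference over all described genes was -0.01 in the former and 0.01 in the latter. Differences below are given first against all other Itm2a cells and then against the selected Itm2a cells, and they are differences of mean log2 values and not folds.

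**Figure D3:**
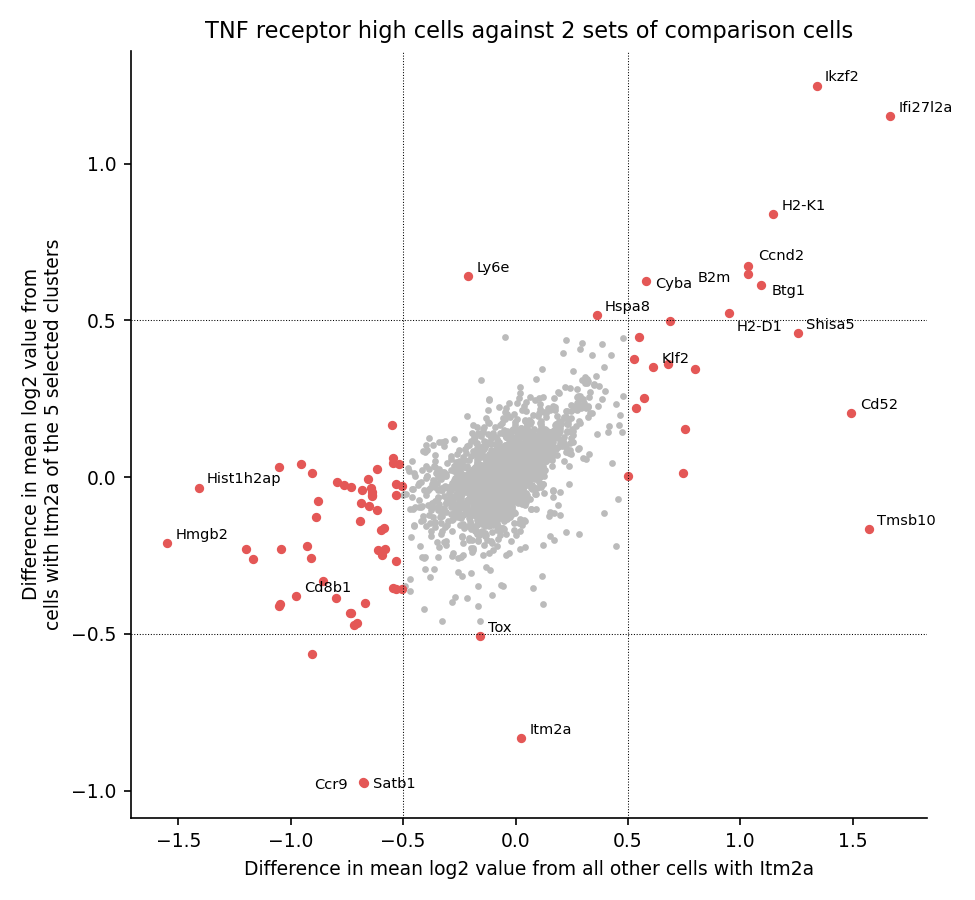
Difference in mean log2 value for each described gene, TNF receptor high cells minus all other Itm2a cells (x axis) and minus the Itm2a cells of the 5 selected clusters (y axis); dotted lines mark 0.5 and red points the called genes. Ikzf2 and Ifi27l2a stood high on both axes, Satb1 and Ccr9 low on both, and the cycling genes Hmgb2 and Hist1h2ap were low on the x axis and near 0 on the y axis.

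Ikzf2, the gene of the transcription factor Helios, had the highest difference from the selected Itm2a cells among the genes outside the rule, though not after thinning. It ranged from 0 to 4.84 over the TNF receptor high cells, with a median of 1.05, and was above 0 in 45 of 70 (64.3%, 51.9 to 75.4%). In the selected Itm2a cells it ranged from 0 to 5.27, with a median of 0, and was above 0 in 100 of 362 (27.6%, 23.1 to 32.5%). The groups thus overlapped cell by cell, while the intervals of the shares did not. Its mean was 1.80 ± 1.76 (SD, n = 70 cells) against 0.46 ± 0.91 in all other Itm2a cells and 0.55 ± 1.11 in the selected ones, which gives differences of 1.34 and 1.25. The first was 0.83 with members chosen by Tnfrsf4 and Tnfrsf18 alone, and 0.67 with the 140 highest cells. In the Rag1 cells, which were deeper, Ikzf2 was above 0 in 33.1%, more often than in the selected Itm2a cells. After thinning, it was above 0 in 55.7% of TNF receptor high cells, 21.8% of selected Itm2a cells and 16.1% of Rag1 cells. The difference from the selected Itm2a cells, as log2(steps + 1) after thinning, was 0.78 for Ikzf2 and 0.84 for Ifi27l2a.

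Ikzf2 was not particular to the TNF receptor high cells. It was also among the leading genes of cluster 4, which held 1 of them and 83 comparison cells. The difference in Ikzf2 varied between clusters. In cluster 14, where its means of 2.52 ± 1.75 and 1.78 ± 1.86 differed by less than the spread among cells, Ikzf2 was above 0 in 74.4% of the TNF receptor high cells and 58.8% of the remaining 34 cells. In cluster 5 it was above 0 in 66.7% of 15 and 9.93% of the 141 remaining cells, and in cluster 3 in 40.0% of 10 and 6.54% of 153. When comparison cells were weighted to the clusters of the TNF receptor high cells, the difference was 1.03. This and the later weighted values rest on few comparison cells, since cluster 14 held 39 of the 70 cells but 17 comparison cells. Ikzf2 was above 0 in 10 of 17 cells with 1 receptor, 28 of 45 with 2 and 7 of 8 with 3. The intervals of these shares overlapped (32.9 to 81.6%, 46.5 to 76.2% and 47.3 to 99.7%). Cluster 14, with Ikzf2 among its leading genes, held 6, 26 and 7 of these cells in turn. The cells with 3 receptors also had the highest median number of genes above 0. The parts of cluster and depth in these shares were not tested. Of the single receptors, Tnfrsf9 varied with Ikzf2 across the 70 cells (Pearson's r = 0.47, Spearman's rho = 0.43), Tnfrsf18 little (0.15 and 0.15) and Tnfrsf4 in the opposite sense (-0.12 and -0.15). These are descriptions of cells that share 1 library and the choice on the receptors.

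The label of agonist-selected cells was checked on the regulatory T cell list. Of 11 described genes outside the rule, 1 was called higher (Ikzf2) and 1 lower (Satb1) against either set. Over all described genes, 0.367% were called higher and 0.918% lower against all other Itm2a cells, and 0.204% and 0.102% against the selected ones. Positive differences were seen in 10 of the 11 against all other Itm2a cells and in 9 against the selected ones, where 42.2% and 54.6% of all described genes were positive, with medians of 0.11 and 0.10. Foxp3, the lineage-defining factor of regulatory T cells, was above 0 in 2 of 70 cells (2.86%, 0.348 to 9.94%), 2 of 674 other Itm2a cells (0.297%), both among the 362 selected ones, and 1 of the 871 Rag1 cells (0.115%). The 2 cells ranked first and 6th by receptor mean, and both lay in cluster 14 with Itm2a at 0. Among the 48 cells with Itm2a, as all comparison cells had, Foxp3 was above 0 in none, so its higher share was not seen there. The first had all 3 receptors and Ikzf2 at 4.84 with Il2ra at 0, and the other had Il2ra at 2.29 with Ikzf2 at 0. Foxp3 was thus detected in few of the cells, and most of them are described by their receptors and not as regulatory T cells.

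Il2ra, the alpha chain of the interleukin-2 receptor, was above 0 in 8 of 70 cells (11.4%, 5.07 to 21.3%) and in 3 of 362 selected Itm2a cells (0.829%), whereas 4.90% of all other Itm2a cells had it. The latter include early cells of other clusters, and the Rag1 cells had it in 7.92%. Ikzf4 (Eos), a partner of Foxp3 in regulatory T cells, was above 0 in 15 cells (21.4%, 12.5 to 32.9%) against 4.97% (2.97 to 7.74%) of the selected Itm2a cells. Izumo1r (folate receptor 4) was above 0 in 31.4% (20.9 to 43.6%) against 22.4% (18.2 to 27.0%), with overlapping intervals. Nrp1 was above 0 in 7 cells (10.0%, 4.12 to 19.5%) against 1.10% (0.302 to 2.80%), but in 12.7% of the deeper Rag1 cells. Ctla4, an inhibitory receptor, was above 0 in 4 cells (5.71%) against 1.38%. Ikzf4, Izumo1r and Nrp1 were singled out after their values were seen. Il2ra and Foxp3 were above 0 together in 1 cell, and Il2ra and Izumo1r in 4.

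Satb1 and Ccr9 had lower means than in both comparison sets, though not in every cluster. Satb1, which codes for a chromatin organizer of thymocytes, ranged from 0 to 4.60 over the TNF receptor high cells with a median of 2.46, and from 0 to 5.59 in the selected Itm2a cells with a median of 3.45. Its means were 2.26 ± 1.29 and 3.23 ± 1.23, with differences of -0.68 and -0.97. Ccr9, the receptor for a chemokine of thymic epithelium, ranged from 0 to 2.78 with a median of 0.11, against 0 to 4.67 and a median of 1.48. Its mean was 0.60 ± 0.72 against 1.57 ± 1.35, with differences of -0.67 and -0.98. Both groups spanned 0 to high values and overlapped. Weighted by cluster, the differences were -0.19 for Satb1 and -0.34 for Ccr9, smaller than without the weights. In cluster 14 the means of chosen and remaining cells were 1.77 and 1.77 for Satb1 and 0.55 and 0.54 for Ccr9. In cluster 3 they were 3.47 and 3.82 for Satb1 and 0.76 and 2.01 for Ccr9. In cluster 5 the direction was opposite, with 2.92 and 2.32 for Satb1 and 0.68 and 0.47 for Ccr9. Tox, which codes for a factor of CD4 lineage cells, had a difference of -0.51 from the selected Itm2a cells and -0.16 from all others. Gm4258, an unnamed gene model, had differences of -0.90 and -0.56. Tox and Gm4258, with Itm2a (-0.83), completed the 5 genes called lower against the selected Itm2a cells, and all 3 were singled out after their values were seen.

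**Figure D4:**
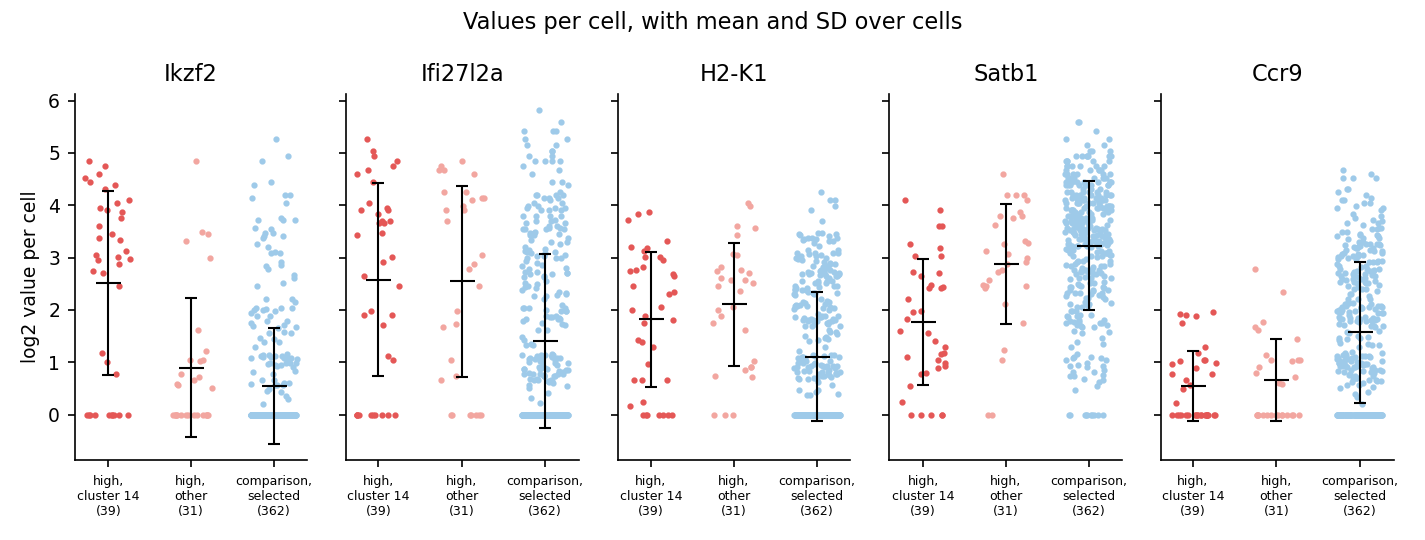
Log2 value per cell of 5 genes in the 39 TNF receptor high cells of cluster 14, the 31 in other clusters and the 362 selected Itm2a cells, with mean and SD over cells. Ikzf2 was highest and Satb1 lowest in the cells of cluster 14, and values of all groups overlapped.

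The largest difference from all other Itm2a cells was that of Ifi27l2a, an interferon-inducible gene. It ranged from 0 to 5.27 with a median of 2.97 in the TNF receptor high cells, and had a median of 0 in all other and 0.77 in the selected Itm2a cells. The means were 2.56 ± 1.83, 0.90 ± 1.42 and 1.41 ± 1.66, with differences of 1.67 and 1.15. H2-K1, a heavy chain of the class I molecules that present antigen, had a mean of 1.95 ± 1.24 against 0.80 ± 1.07 and 1.11 ± 1.23, and was above 0 in 85.7% (75.3 to 92.9%) of the cells against 54.7% (49.4 to 59.9%) of the selected ones. Its differences were 1.15 and 0.84, those of the heavy chain H2-D1 0.95 and 0.52, those of B2m, the light chain, 1.03 and 0.65, and those of Psme2, a proteasome activator subunit, 0.55 and 0.45. The class I heavy chains are close in sequence, so reads may be shared between H2-K1 and H2-D1. Weighted by cluster, these differences were 0.14 for Ifi27l2a, -0.10 for H2-K1, -0.05 for H2-D1 and 0.10 for B2m. The same genes are among the leading genes of cluster 14, so the weighting compares cells within a cluster that they mark.

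Of 15 genes called higher against all other Itm2a cells that matched a promoter entry, 4 (B2m, H2-K1, Ltb and H2-D1) had a kappaB match in a 250-base window, or 26.7%. Of 38 such genes called lower, 7 had one (18.4%), and 10.3% of 4743 described genes did. These are counts of letters in sequence and were not tested.

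Of 21 described genes of the maturation and egress list, 7 were called higher and 1 lower against all other Itm2a cells, where 0.367% and 0.918% of all described genes were, with a median difference of 0.14. Cd52, a surface glycoprotein of mature lymphocytes, was above 0 in all 70 cells, between 1.32 and 5.82, with a difference of 1.49. Tmsb10, an actin-binding peptide gene, differed by 1.57, Shisa5 by 1.26, the adhesion receptor Cd2 by 0.75 and Klf2, a transcription factor of egress, by 0.61. Against the selected Itm2a cells the list had 2 genes called higher (H2-K1 and H2-D1) and 1 lower (Ccr9) of 20, with 0.204% and 0.102% over all described genes. There Cd52 differed by 0.20, Shisa5 by 0.46, Klf2 by 0.35 and Cd2 by 0.01, and Tmsb10 had the opposite sign (-0.17). Weighted by cluster, the differences were 0.01 for Cd52, 0.19 for Cd2, -0.15 for Tmsb10, -0.17 for Shisa5 and -0.27 for Klf2. Ccr7, the chemokine receptor that guides cells to the medulla, was above 0 in 35 of 70 cells (50.0%, 37.8 to 62.2%) against 36.2% (31.2 to 41.4%) of the selected ones. S1pr1, the egress receptor, was above 0 in 18.6% (10.3 to 29.7%) against 13.0% (9.70 to 16.9%). In both the intervals overlapped.

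Btg1, an antiproliferative gene (1.09 and 0.61), and Ccnd2, which codes for cyclin D2 (1.03 and 0.67), were called against both sets. Weighted by cluster, neither was called, with differences of 0.29 and 0.44. Btg1 was above 0 in all 70 cells, from 0.93 to 4.67 with a median of 3.12. Ccnd2 was above 0 in 49 cells (70.0%, 57.9 to 80.4%) against 46.4% (41.2 to 51.7%) of the selected Itm2a cells. Cyba, a subunit of NADPH oxidase, differed by 0.58 and 0.62, and by 0.45 when weighted by cluster, where it was not called either. Ly6e and Hspa8 were called higher only against the selected Itm2a cells, by 0.64 and 0.52, and were singled out after their values were seen. Ly6e had the opposite sign (-0.21) against all other Itm2a cells. The remaining genes among the 20 highest against all other Itm2a cells, Gm12840, Tmsb4x, Zfp36l1, Tspan32 and Gimap4, differed by 0.80, 0.75, 0.69, 0.57 and 0.54, and by 0.35, 0.15, 0.50, 0.25 and 0.22 against the selected ones, where none reached 0.5 unrounded.

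No gene of the TRAF and NF-kappaB list was called, yet 23 of 27 described genes had positive differences, against 42.2% of all described genes. The median was 0.07. The genes of this list other than Nfkb1 and Traf1 are named here after their values were seen. Against the selected Itm2a cells, 21 of 26 were positive, against 54.6% of all described genes, with a median of 0.06. Rel, the c-Rel subunit, was above 0 in 24 of 70 cells (34.3%, 23.3 to 46.6%) against 12.2% (8.97 to 16.0%) of the selected Itm2a cells, with mean differences of 0.39 and 0.35. Nfkb1, the p50 precursor, was above 0 in 35.7% (24.6 to 48.1%) against 20.4% (16.4 to 25.0%). Nfkbia, the inhibitor that NF-kappaB itself induces, was above 0 in 72.9% (60.9 to 82.8%) against 48.6% (43.4 to 53.9%), with differences of 0.48 and 0.44. The deeper Rag1 cells had Nfkbia in 66.8%, and in 36.2% after thinning.

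Among the rarer members of this list, Relb, of the noncanonical pathway, was above 0 in 12 cells (17.1%, 9.18 to 28.0%) against 5.80% (3.63 to 8.73%), and Bcl3, an atypical inhibitor protein, in 8 cells (11.4%, 5.07 to 21.3%) against 1.93% (0.781 to 3.94%). Traf1, an adaptor of these receptors, was above 0 in 20.0% (11.4 to 31.3%) against 11.3% (8.25 to 15.1%), with overlapping intervals. Traf4 was the most negative member against the selected Itm2a cells (-0.09). After thinning, Rel was above 0 in 24.3% against 6.91%, Nfkbia in 55.7% against 35.4% and Relb in 11.4% against 3.04%.

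**Figure D5:**
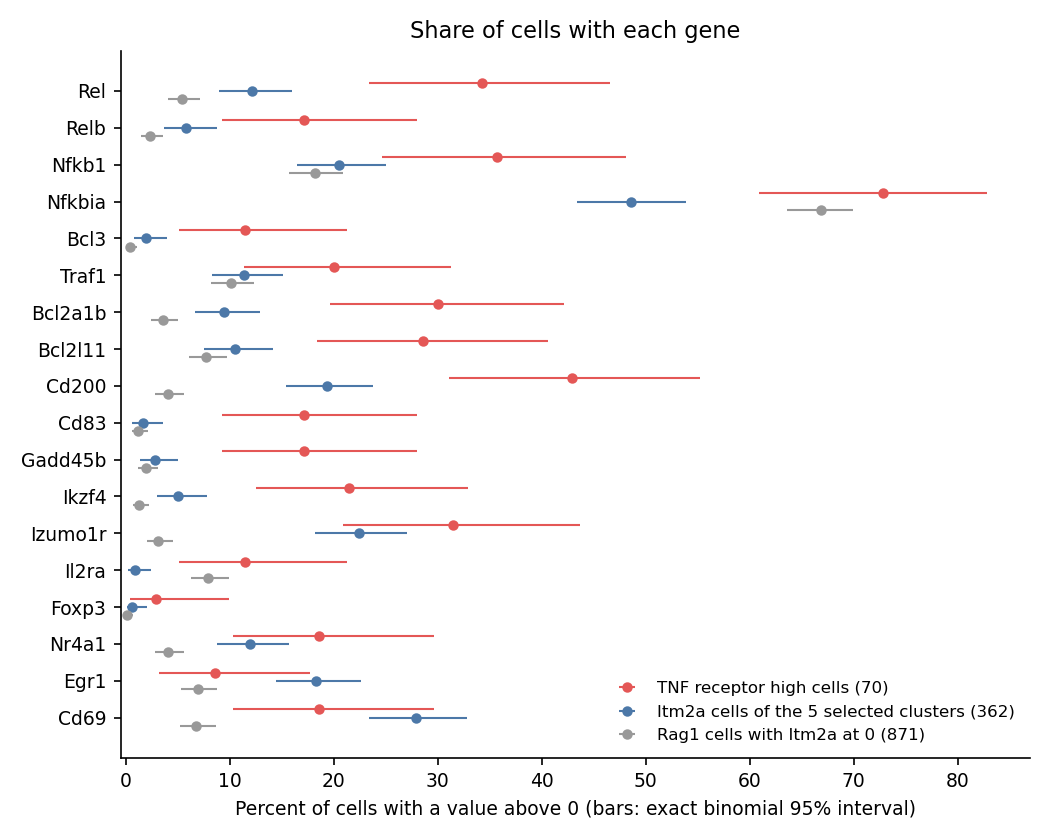
Percent of cells with a value above 0 for 18 genes in the 70 TNF receptor high cells, the 362 selected Itm2a cells and 871 Rag1 cells with Itm2a at 0, with exact binomial 95% intervals. Rel, Relb, Nfkbia, Bcl3, Bcl2a1b, Bcl2l11, Cd200, Cd83, Gadd45b, Ikzf4 and Il2ra had intervals above those of the selected Itm2a cells, whereas the other genes overlapped them.

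Of the other TNF receptor genes, 8 of 25 were in the table and 5 were described, and none was called. Cd27, a costimulatory receptor of most thymocytes, was above 0 in 90.0% (80.5 to 95.9%) of the TNF receptor high cells and 86.7% (82.8 to 90.1%) of the selected Itm2a cells. Tnfrsf1b, the second TNF receptor, was above 0 in 8 cells (11.4%, 5.07 to 21.3%) against 5.25% (3.19 to 8.08%), and the death receptor Fas in 28.6% (18.4 to 40.6%) against 20.4% (16.4 to 25.0%). Tnfrsf1a was above 0 in 4 cells (5.71%) against 15.5%. None of these intervals lay above that of the selected Itm2a cells. Of the ligand genes, 6 of 17 were in the table. Ltb, which codes for lymphotoxin beta, was called higher against all other Itm2a cells by 0.68, with 0.36 against the selected ones. Its sign turned when weighted by cluster (-0.16) and against the next 70 cells by receptor mean (-0.076). Cd40lg was above 0 in 22.9% against 21.3%.

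Of the apoptosis list, no gene was called higher, and 11 of 18 described genes were positive against the selected Itm2a cells (54.6% of all described genes were), with a median of 0.01. Bcl2l11 codes for BIM, a killer protein known from strongly stimulated thymocytes. It ranged from 0 to 4.04 with a median of 0 and was above 0 in 20 of 70 cells (28.6%, 18.4 to 40.6%), against 10.5% (7.54 to 14.1%) of the selected Itm2a cells, with differences of 0.36 and 0.32. It was above 0 in 12 of the 39 TNF receptor high cells of cluster 14 (30.8%, against 17.6% of its other cells), in 6 of 10 in cluster 3 (60.0%, against 7.84%) and in 0 of 15 in cluster 5 (against 8.51%). Bcl2a1b, a pro-survival gene, was above 0 in 30.0% (19.6 to 42.1%) against 9.39% (6.59 to 12.9%), and its near-identical copy Bcl2a1d in 22.9% (13.7 to 34.4%) against 8.56% (5.89 to 11.9%). Reads of these copies may be shared, so their separate values are uncertain. Bcl2, the survival gene typical of selected cells, was above 0 in 51.4% (39.2 to 63.6%) against 68.0% (62.9 to 72.7%), and its difference was 0.12 against all other but -0.40 against the selected Itm2a cells. Against all other Itm2a cells, 12 of 20 described genes were positive (42.2% of all). Only Birc5, a gene that also marks cycling cells, was called there (-0.68), where 0.918% of all described genes were called lower.

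Of 24 described genes of the list of strong T cell receptor signaling, 20 had positive differences from all other Itm2a cells (median 0.10) and 17 from the selected ones (median 0.07), against 42.2% and 54.6% of all described genes, and Ikzf2 was the 1 gene called higher. Against the selected Itm2a cells, 2 genes of the list were called lower, Tox and Itm2a, the latter set by the grouping. Of all described genes, 0.367% were called higher against all other Itm2a cells, and 0.204% higher and 0.102% lower against the selected ones. Cd200, an inhibitory ligand, was above 0 in 42.9% (31.1 to 55.3%) against 19.3% (15.4 to 23.8%), Cd83 in 17.1% (9.18 to 28.0%) against 1.66% (0.611 to 3.57%), and Gadd45b, a stress and NF-kappaB response gene, in 17.1% (9.18 to 28.0%) against 2.76% (1.33 to 5.02%). Cd200, Cd83 and Gadd45b were singled out after their values were seen. For Egr1, Egr2, Cd69, Nr4a1 and Cd5 the intervals overlapped those of the selected Itm2a cells. Egr1 was above 0 in 6 cells (8.57%, 3.21 to 17.7%) against 18.2% (14.4 to 22.6%), Egr2 in 3 cells (4.29%, 0.893 to 12.0%) against 8.29% (5.66 to 11.6%), and the activation marker Cd69 in 18.6% (10.3 to 29.7%) against 27.9% (23.3 to 32.8%). Nr4a1 (Nur77) was above 0 in 13 cells (18.6%, 10.3 to 29.7%) against 11.9% (8.73 to 15.7%), and Cd5, whose level follows signal strength, in 45.7% (33.7 to 58.1%) against 47.8% (42.5 to 53.1%).

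Genes of the CD4 and the CD8 lineage were both detected. Cd4 was above 0 in 32 cells (45.7%, 33.7 to 58.1%) against 45.0% (39.8 to 50.3%) of the selected Itm2a cells. Cd8a was above 0 in 34 (48.6%, 36.4 to 60.8%) against 63.5% (58.3 to 68.5%), and Cd8b1 in 49 (70.0%, 57.9 to 80.4%) against 76.2% (71.5 to 80.5%). Both genes of CD8 were called lower against all other Itm2a cells (-0.86 and -0.98) but not against the selected ones (-0.33 and -0.38). Weighted by cluster, the sign of Cd8b1 turned. Cd4 and Cd8a were above 0 together in 15 cells, Cd4 alone in 17, Cd8a alone in 19 and neither in 19. Zbtb7b (ThPOK), which drives the CD4 lineage, was above 0 in 17.1% (9.18 to 28.0%) against 11.9% (8.73 to 15.7%), and Runx3, which drives the CD8 lineage, in 22.9% (13.7 to 34.4%) against 14.4% (10.9 to 18.4%).

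Genes of the stage before selection and of the cell cycle were lower against all other Itm2a cells and mostly nearer to the selected ones. Of 11 rearrangement genes 4 were called lower (Dntt, Ly6d, Arpp21 and Endou, by -0.88, -0.96, -0.64 and -0.65), with a median of -0.39, where 0.918% of all described genes were called lower, but against the selected Itm2a cells none of 9 was, with a median of -0.06. Rag1, which codes for the recombinase, was above 0 in 28.6% (18.4 to 40.6%), 53.4% and 30.7% of the 3 groups in turn. Of 22 proliferation genes 9 were called lower in the same comparison, with a median of -0.42, but none of 20 against the selected ones (median -0.02). Hmgb2 and Hist1h2ap had the lowest values of all genes, -1.55 and -1.41, and -0.21 and -0.03 against the selected Itm2a cells. Hmgb1, Stmn1, Thy1, H2afz, Ube2s and Hmgn2, the others of the 10 lowest with Cd8b1 and Ly6d, had differences of -1.20, -1.17, -1.05, -1.05, -1.05 and -1.05 from all other Itm2a cells, and of -0.23, -0.26, -0.41, 0.03, -0.41 and -0.23 from the selected ones. Weighted by cluster, Ube2s was still called, with -0.53. Pcna, Ube2c, Top2a, Rrm2 and Tuba1b of the proliferation list were lower by -0.53, -0.69, -0.73, -0.53 and -0.76, and by at most -0.08 against the selected ones. Mki67, given above, moved with these genes, and the part of cycling cells in their differences was not tested.

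Of 15 genes of the T cell receptor and CD3 complex list, which also holds proximal kinases and adaptors such as Lck and Lat, none was called higher. Trbc1 was called lower against all other Itm2a cells (-0.67), where 0.918% of all described genes were. The median of the list was 0.01 there, and none was called against the selected ones, where 3 were positive and the median was -0.22. Cd3d was above 0 in all 70 cells. None of the 18 described genes of cytokine receptor signaling was called in either direction, with a median of 0.03, and none of 17 against the selected Itm2a cells. Il7r, the interleukin-7 receptor of selected cells, was above 0 in 14.3% (7.07 to 24.7%) against 32.3% (27.5 to 37.4%).

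Markers of other cells were looked at across whole lists. Of 23 antigen-presenting cell markers in the table, 19 were above 0 in at least 1 TNF receptor high cell. Their summed log2 value per cell ranged from 0 to 19.6 with a median of 2.84, against 0 to 10.1 and 2.17 in the selected and 0 to 43.7 and 2.91 in all other Itm2a cells. Cd74, the invariant chain of class II molecules, was above 0 in 35.7% (24.6 to 48.1%) of the cells, 25.4% (21.0 to 30.2%) of the selected Itm2a cells and 25.9% of the Rag1 cells, and the last share is a background, since thymocytes before selection should lack it. Only Ighm was called, lower by -0.60 against all other Itm2a cells, where 0.918% of all described genes were called lower. The cell in cluster 16, a cluster led by Cd74 and class II genes, had Cd74 at 3.11 and Cd3d at 1.23, with H2-Aa, Cd3e, Trac and Ikzf2 at 0. Without it, all 44 named genes called against all other Itm2a cells kept their sign and their call. In another alternative, all cells with at least 2 markers of antigen-presenting or nonconventional cells were left out. These were 514 of all 1993 cells, among them 19 of the 70. When 70 cells were chosen anew from the rest, all 44 kept their sign and 40 their call, and the difference in Ikzf2 was 1.06. Of 18 nonconventional lymphocyte markers 16 were above 0 in some cell, with a summed value from 0 to 13.4 and a median of 1.05, against 0.99 and 1.35. Epithelial and stromal markers (5 in the table) had a median sum of 0 in all 3 groups, as did erythroid and platelet markers (2 in the table). The part of admixed RNA or doublets in the results was not tested.

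The TNF receptor high cells differed among themselves by cluster, and the values are a description, since clusters were built from variable genes other than the receptors and the receptors chose the cells. In the 39 cells of cluster 14, Ikzf2 averaged 2.52 ± 1.75 and Satb1 1.77, against 0.90 ± 1.32 and 2.87 in the other 31 cells. Rel was above 0 in 19 of 39 against 5 of 31, Cd200 in 24 against 6 and Tnfrsf9 in 23 against 9. Tnfrsf4 was about as frequent on both sides, in 69.2% and 74.2%. Cells of cluster 3 had high Itm2a (3.86 ± 0.74) and Satb1 (3.47 ± 0.70), and cells of cluster 5 high Klf2 (2.17 ± 1.05) and H2-K1 (2.73 ± 0.75). The 34 cells of cluster 14 that were not chosen had Ikzf2 at 1.78 ± 1.86, Cd200 in 52.9% and Satb1 at 1.77, near the chosen ones, but Rel in 17.6% against 48.7% of the 39. In clusters 5 and 3 Rel was about as frequent in both sets of cells, in 13.3% of the chosen and 14.2% of the remaining cells of cluster 5, and in 10.0% and 11.8% in cluster 3.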

How the data were processed

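Thymocytes were captured in droplets (10x 3′ kit) as 1 library. Per the labels and the study's methods, the authors aligned reads with Cell Ranger 1.3.1 to GRCm38.p5, removed low-quality cells and rare genes, and deposited quantile-normalized log2 values (0 to 7.14; 8846 genes; 79.7% zeros). Molecule counts were not used here, so depth is known only through the genes above 0 and the 1300-step thinning, in which a step is 1 level of the sorted nonzero values of a cell. Of 1993 cells, 1986 had up to 4500 genes, a limit the methods name, and all were kept, and none of the 70 exceeded it. Doublets were not called. The scATAC-seq table was not used here.

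The members and gene lists were chosen with earlier results of these data known. Means, SDs and shares were computed in Python 3.11.15 with pandas 2.3.3, numpy 2.4.6 and scipy 1.17.1. Clusters came from Seurat 5.3.0 in R 4.3.3 (variable genes of mean 0.025 to 3 and dispersion 0.5, 20 principal components, 30 neighbors, resolution 2). Cluster names rest on rebuilt clusters. Named genes were the 3 rule genes, the 20 highest and 10 lowest differences with the same sign after thinning, called genes of each list and a fixed set of lineage and signaling genes. Genes named outside this rule were chosen after their values were seen. The calculation of differences was run on simulated counts with known changes. These had no quantile normalization and no choice of cells on receptors, so the effect of either was not checked. Promoter windows are those of RefSeq for GRCm38.p6. Alternatives varied the threshold, filter, scale, members, comparison cells and cells left out.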

Additional observations from a re-analysis of the deposited data

How the results depend on the processing

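The count of genes called higher was 22 and that of genes called lower 55. With genes called from 0.25 they were 92 and 262, and from 1 they were 9 and 8, as a narrower or wider limit must give. After thinning they were 11 and 15, against the next 70 cells by receptor mean 5 and 10, with comparison cells weighted by cluster 2 and 1, and with members by Tnfrsf18 and Tnfrsf9 the count of lower genes was 36. Among alternatives added after seeing the data, the counts were 10 and 5 against the selected Itm2a cells, 3 and 3 against these after thinning, and 14 lower against comparison cells with Mki67 at 0. The cause of these moves was not tested. Foxp3 was above 0 in 0% of the 48 chosen cells with Itm2a above 0, and its other shares, and those of Il2ra and Nr4a1, stayed within the interval of the main share, as did the share of cells in the cluster with most of them. Of 44 named genes called at 0.5, all kept their sign after thinning, where 22 still reached 0.5. For the 20 highest and 10 lowest genes this sign was fixed in advance, since they were named only if it held. All 44 also kept their sign with other members, with cells left out and against cells with Mki67 at 0. With comparison cells weighted by cluster 31 kept it, against the next 70 cells 39, and against the selected Itm2a cells 41, before and after thinning. The weighted values for cluster 14, with 39 of the 70 cells, rest on 17 comparison cells. Weighted by cluster, the signs turned for Tmsb10 (-0.15), Shisa5 (-0.17), H2-K1 (-0.10), H2-D1 (-0.048), Ltb (-0.16), Klf2 (-0.27), Gimap4 (-0.057), H2afz (0.035), Cd8b1 (0.038), Pcna (0.0091), Rrm2 (0.045), Tuba1b (0.11) and Dntt (0.012). Against the next 70 cells they turned for H2-D1 (-0.17), Ltb (-0.076), Klf2 (-0.059), H2afz (0.048) and Tuba1b (0.027). Against the selected Itm2a cells they turned for Tmsb10 (-0.17), H2afz (0.032) and Ly6d (0.042), and after thinning for Tmsb10 (-0.11), Hmgb2 (0.048) and Birc5 (0.0092). The difference in Ikzf2 ranged from 0.67 to 1.82 over the alternatives, and that in Ifi27l2a from 0.14 to 1.79. No paired analysis was possible because all cells came from 1 library. Molecule counts behind the log2 values were not used here, so rare genes such as Foxp3 are limited by detection.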
